A study of Rattus norvegicus with 10 samples.

Results

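The genes described here are those of protein folding in the endoplasmic reticulum (ER) and of the unfolded protein response, the signalling system that adjusts that folding capacity. There were 47 of them, chosen by name, and each was read from the Affymetrix probe set annotated with its symbol alone, the one with the highest mean signal where there were several. A probe set was found for 46 of the 47, among 14217 genes with such a probe set, and the IRE1 gene Ern1 had none. The tissue was the paraventricular nucleus of the hypothalamus of male Sprague Dawley rats aged 10 to 12 weeks, dissected and pooled from 5 animals per array. Rats dehydrated for 3 days gave 5 pools and control rats gave 5 pools, from separate groups of animals. No genotype or drug was involved. The question of the design was which transcripts of this nucleus differ after dehydration.

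Secreted peptides enter the ER through the Sec61 channel, are bound by chaperones such as BiP (Hspa5), receive disulphide bonds from protein disulphide isomerases, and are sent back to the cytosol for degradation when they fail to fold. The unfolded protein response is run by 3 membrane sensors, IRE1, PERK and ATF6, which raise transcription of chaperone and degradation genes when unfolded protein accumulates. Vasopressin neurons make a prohormone with many disulphide bonds in large amounts, which makes this tissue a natural place to look at these genes after an osmotic stimulus.

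Signals had been scaled by the authors to the same mean on every array, and array medians ran from 36.5 to 39.1 in dehydrated and from 36.4 to 38.2 in control pools. Control replicate 5 stood apart from the rest on the first principal component (37.2, against -14.4 to 3.69). It also had the lowest 3′ to 5′ signal ratios of the control transcripts Gapdh (log2 1.05, against 1.34 to 1.84 on the other arrays) and Actb (2.16, against 2.60 to 3.07), and its title is not consecutive with those of the other controls. What part this had in its values was not tested. Dehydrated replicate 2 correlated slightly better with the control arrays (0.973) than with its own group (0.971). The magnocellular transcripts of vasopressin and oxytocin, and the paraventricular genes Crh, Trh and Sim1, gave signals above 0 in all pools, with Crh between 211.9 and 448.0 in dehydrated and between 183.0 and 412.8 in control pools. A signal above 0 does not by itself show that a transcript is present. Erp27, a folding gene too dim to test at a mean signal of 1.59, was above 0 in all pools too. One passage of the submitted text names the supraoptic nucleus instead, and the sample labels, which name the paraventricular nucleus, were followed. The dissected tissue also holds glia and vessels, so a signal is an average over all of its cells, and fewer cells of a type cannot be told apart from less RNA per cell.

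None of the 46 genes passed the threshold of 0.05 after Benjamini-Hochberg adjustment in limma (0 higher, 0 lower), while 0.58% of the 18629 probe sets tested did, 0.397% higher and 0.183% lower. Without adjustment 6 of the 46 had p under 0.05, all of them higher in dehydrated pools: the translocon-associated genes Ssr4, Ssr1 and Ssr2, the prolyl isomerase gene Fkbp11, the disulphide isomerase gene Pdia6 and the co-chaperone gene Dnajc3. Over all probe sets tested that share was 12.7%, with 6.7% higher and 6.01% lower in dehydrated pools. The sets are unlike, since the 46 were read from the brightest probe set of each gene and all probe sets include further ones of the same gene. All 5 dehydrated values lay above all 5 control values for Ssr4 and Pdia6, and for no gene of the 46 did they all lie below. Groups that did not overlap were found for 3.36% of all probe sets, with 1.94% higher and 1.42% lower in dehydrated pools. The median log2 difference, dehydrated minus control, was 0.05 over the 46 genes and 0.00 over all probe sets, and 29 of the 46 were positive, against 48.8% of all.

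The differences were small and most were measured closely. The standard error of a difference was 0.08 in the median on the log2 scale, and 0.12 over all probe sets tested. For 42 of the 46 the 95% interval of the difference lay inside 1.5-fold in either direction. The 4 whose intervals reached 1.5-fold were Sil1, Fkbp11, Atf6b and Wfs1. Without control replicate 5, 0 of the 46 passed and 9 had an unadjusted p under 0.05, all higher in dehydrated pools, against 7.49% of all probe sets in that direction. The groups were then apart for 4 genes (Manf, Pdia6, Ssr2 and Ssr4), all higher in dehydrated pools, against 3.19% of all probe sets in that direction. Without dehydrated replicate 2 as well, the first 2 counts were again 0 and 9. All 9 were higher in dehydrated pools, against 8.33% of all probe sets in that direction. In that setting the groups were apart for 5 genes, all higher in dehydrated pools, against 5.24% of all probe sets in that direction.

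**Figure D1:**
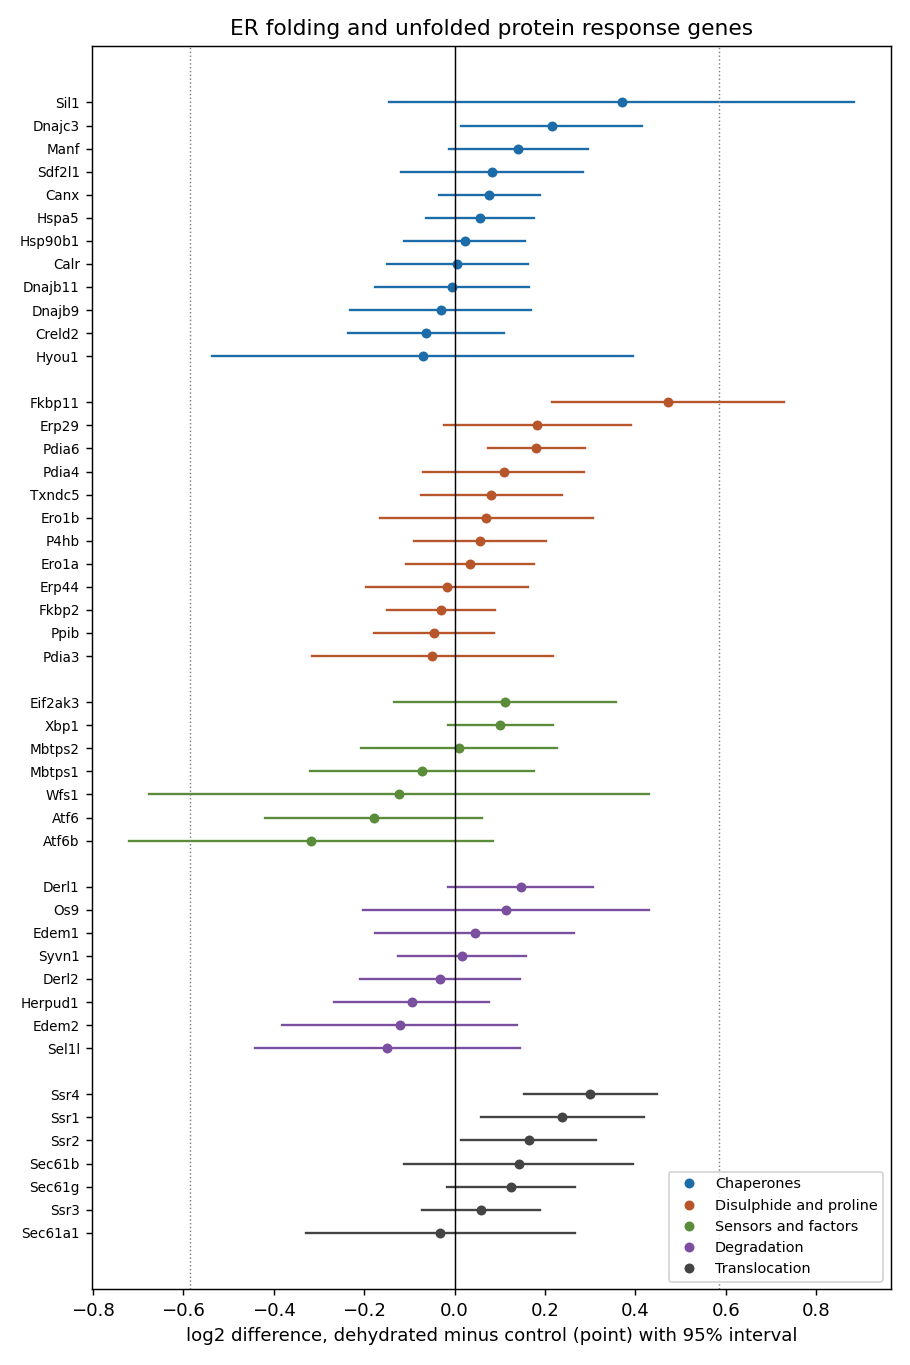
Log2 difference between dehydrated and control pools (horizontal axis) for each of the 46 genes (rows, coloured by role), with the 95% interval of the limma fit as a line and dotted lines at 1.5-fold in either direction. The intervals of all genes except Ssr4, Ssr1, Ssr2, Fkbp11, Pdia6 and Dnajc3 include 0, and the points of 6 of the 7 translocation genes lie to the right of 0.

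Many chaperone promoters carry the element through which ATF6 and XBP1 act, the ER stress response element (ERSE), with the letters CCAAT, any 9 bases and CCACG, or its shorter form ERSE-II, with the letters ATTGG, any 1 base and CCACG. Both strands of the 300 bases around each gene's start (250 before and 50 after, RefSeq, GRCr8) were searched, and windows were found by symbol for 38 of the 46 genes. The ERSE was found in 8 of the 38 (21.1%) and in 0.0765% of all 27457 genes with a window, and the ERSE-II in 3 of the 38 (7.89%) and in 0.0619% of all. The CREB element TGACGTCA was in 0 of the 38 and in 2.0% of all, and the shorter UPR element TGACGTGG was in Hyou1 alone (2.63%, against 0.681% of all), where it overlapped the ERSE-II farther from the start. The genes were chosen by name for ER folding and this response, so a higher share among them could be foreseen and is not a result of these arrays. Of the 21 genes with an ERSE 13 were outside the 38, as were 14 of the 17 with an ERSE-II, so a match alone does not mark a target. Matches are printed with 8 bases on each side for most of the genes of the 38 that carry an ERSE or ERSE-II. Capitals mark the fixed letters, and a match on the opposite strand reads as its reverse complement.
Hspa5: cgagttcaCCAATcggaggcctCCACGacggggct
Hsp90b1, farther from the start: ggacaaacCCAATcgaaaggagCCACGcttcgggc
Hsp90b1, nearer to the start: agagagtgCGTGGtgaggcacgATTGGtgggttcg
Calr: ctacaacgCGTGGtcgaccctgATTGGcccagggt
Creld2: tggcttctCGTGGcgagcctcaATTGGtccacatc
Dnajc3: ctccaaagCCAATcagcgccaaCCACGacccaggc
Ero1b: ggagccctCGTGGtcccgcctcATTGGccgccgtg
Xbp1: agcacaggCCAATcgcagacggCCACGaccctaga
Hyou1, farther from the start: aaccgtgaCGTGGgCCAATccgcagcc
Hyou1, nearer to the start: gtcttctaCGTGGcCCAATggggacgt
Dnajb11: aggcggcgATTGGcCCACGcctggctg
Herpud1: gggcgctgATTGGgCCACGttgggcac

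The whole window of Hspa5, the gene most often read as the gauge of this response, lies at chr3:38452766-38453065 on the plus strand of GRCr8 and holds 1 exact match, which begins 43 bases before the start.
Hspa5 window: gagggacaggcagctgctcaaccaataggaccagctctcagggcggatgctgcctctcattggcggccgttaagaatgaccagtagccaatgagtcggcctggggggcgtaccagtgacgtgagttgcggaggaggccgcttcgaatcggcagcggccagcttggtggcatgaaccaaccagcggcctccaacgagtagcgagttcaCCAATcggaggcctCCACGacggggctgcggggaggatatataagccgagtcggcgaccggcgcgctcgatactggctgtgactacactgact
The 11 genes with an ERSE or ERSE-II had log2 differences from -0.10 to 0.21, with a median of 0.02, and 7 of them were positive. The 27 genes with a window and neither element ran from -0.32 to 0.47, with a median of 0.06 and 17 positive. Dnajc3 alone among the 11 had an unadjusted p under 0.05, and 4 of the 27 did. Of all probe sets tested, 12.7% had such a p and 48.8% were positive. Whether the genes with and without an element differ was not tested.

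Among the 12 chaperones and their partners 8 were positive and 0 passed, with a median log2 difference of 0.04. Hspa5, which binds unfolded chains in the ER lumen, had signals of 1402.8, 1610.3, 1483.5, 1441.1 and 1384.7 in the 5 dehydrated pools, against 1451.7, 1369.5, 1303, 1489.4 and 1423.5 in the control pools, in the order of the replicates as in all such sentences. Its groups overlapped over most of their range, and its mean of 1464 ± 89.9 in dehydrated pools stood beside 1407 ± 72.9 in control pools (SD, n = 5 each). The log2 difference was 0.06 ± 0.06 (SE, adjusted p = 0.713), and the 95% interval of the fold ran from 0.958 to 1.13. Hsp90b1, the ER member of the Hsp90 family, had 752.7, 759.7, 832.5, 861 and 731.3 in dehydrated pools, against 800.3, 761.9, 742.9, 845.4 and 724.2 in control pools. Those values overlapped almost entirely (log2 0.02 ± 0.06, adjusted p = 0.913).

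Calr encodes calreticulin, the lectin chaperone of glycoproteins in the lumen. It had 569.4, 526.3, 483.6, 503.1 and 547.6 in dehydrated pools, against 477, 504.4, 533.3, 494.9 and 615.7 in control pools (log2 0.01 ± 0.07, adjusted p = 0.981). Its highest and its lowest value were both in the control group. Its membrane-bound relative Canx differed by 0.08 ± 0.05 (adjusted p = 0.573). Hyou1, a large Hsp70 relative that exchanges nucleotide on BiP, had 105.4, 181.2, 86, 135 and 195.2 in dehydrated pools, against 105.3, 114.6, 184.8, 115.5 and 216 in control pools. Both groups of Hyou1 spread widely and overlapped, and with an error of 0.22 the difference of -0.07 (adjusted p = 0.924) was among the least closely measured. Sil1, the other exchange factor, had a wide interval too, from -0.15 to 0.88 around 0.37.

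None of the smaller stress-induced chaperones passed. Sdf2l1, a partner of the DnaJ proteins, had 204.5, 177.5, 203.9, 165.7 and 156.4 in dehydrated pools, against 185.3, 190, 160.8, 169.6 and 149.1 in control pools (log2 0.08 ± 0.09, adjusted p = 0.760). Dehydrated replicates 1 and 3 lay above all controls and the other 3 among them. Dnajb9, a DnaJ protein induced by XBP1 that restrains IRE1, had 420.3, 575.5, 409.7, 391.2 and 435.3 in dehydrated pools, against 515, 465.5, 410, 451.1 and 424.2 in control pools (log2 -0.03 ± 0.09, adjusted p = 0.921). Dehydrated replicate 2 was its highest pool and stood apart from the other 4 of its group. Dnajb11 and Creld2 differed by -0.01 and -0.06.

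Manf, a secreted protein of the stress response, had 353.9, 326, 352.2, 340.3 and 339.6 in dehydrated pools, against 293.9, 318.5, 291.7, 287.7 and 364.8 in control pools. Every dehydrated value was above 4 of the 5 controls and below control replicate 5. The log2 difference was 0.14 ± 0.07 (adjusted p = 0.429), and 0.20 ± 0.06 without control replicate 5 (adjusted p = 0.144). Dnajc3, which carries unfolded chains to BiP, had 96.5, 104.1, 105.2, 103.5 and 96.5 in dehydrated pools, against 84.1, 81.1, 89.9, 103.4 and 76.8 in control pools. Dehydrated pools were close together and control replicate 4 lay among them. Its log2 difference was 0.21 ± 0.10 (adjusted p = 0.365), and 0.17 without control replicate 5.

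Of the 12 genes of disulphide bond formation and proline isomerization 8 were positive and 0 passed, with a median of 0.06. Pdia6, a disulphide isomerase that also binds IRE1 and BiP, had 1115.8, 1079.2, 1141.1, 1172.2 and 1063.2 in dehydrated pools, against 985, 950.4, 965.7, 1038.2 and 971.8 in control pools. The groups did not overlap, at means of 1114 ± 44.5 in dehydrated and 982 ± 33.7 in control pools (SD, n = 5 each). That was a fold of 1.13 with a 95% interval from 1.05 to 1.22, and a log2 difference of 0.18 ± 0.05 (adjusted p = 0.134). The classical isomerase P4hb differed by 0.06, Pdia4 by 0.11, Txndc5 by 0.08 and the glycoprotein isomerase Pdia3 by -0.05, with adjusted p from 0.619 to 0.900.

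Fkbp11, a membrane-bound prolyl isomerase abundant in secretory cells, had the largest difference of the 46. Its signals were 77.2, 86.7, 102.5, 98.3 and 77.5 in dehydrated pools, against 64.1, 58.8, 55.4, 80 and 56.1 in control pools. Control replicate 4 lay above the 2 lowest dehydrated pools, and the other 4 controls lay below all dehydrated pools. The means were 88.4 ± 11.7 in dehydrated and 62.9 ± 10.2 in control pools (SD, n = 5 each), a fold of 1.39 with a 95% interval from 1.16 to 1.66. The log2 difference of 0.47 ± 0.12 had an adjusted p of 0.0965. The other prolyl isomerases, Fkbp2 and Ppib, differed by -0.03 and -0.05.

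Erp29, a chaperone with a disulphide isomerase fold and no redox activity, had 634.7, 620.7, 678.1, 693.2 and 534.4 in dehydrated pools, against 463.4, 604.6, 491.3, 553 and 686 in control pools. Control replicate 5 was second only to dehydrated replicate 4, and control replicates 2 and 4 lay above dehydrated replicate 5 (log2 0.18 ± 0.10, adjusted p = 0.446, and 0.26 ± 0.09 with an adjusted p of 0.176 without control replicate 5). The oxidases that reload the isomerases, Ero1a and Ero1b, differed by 0.03 and 0.07, and Erp44, which holds Ero1 in the ER, by -0.02.

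**Figure D2:**
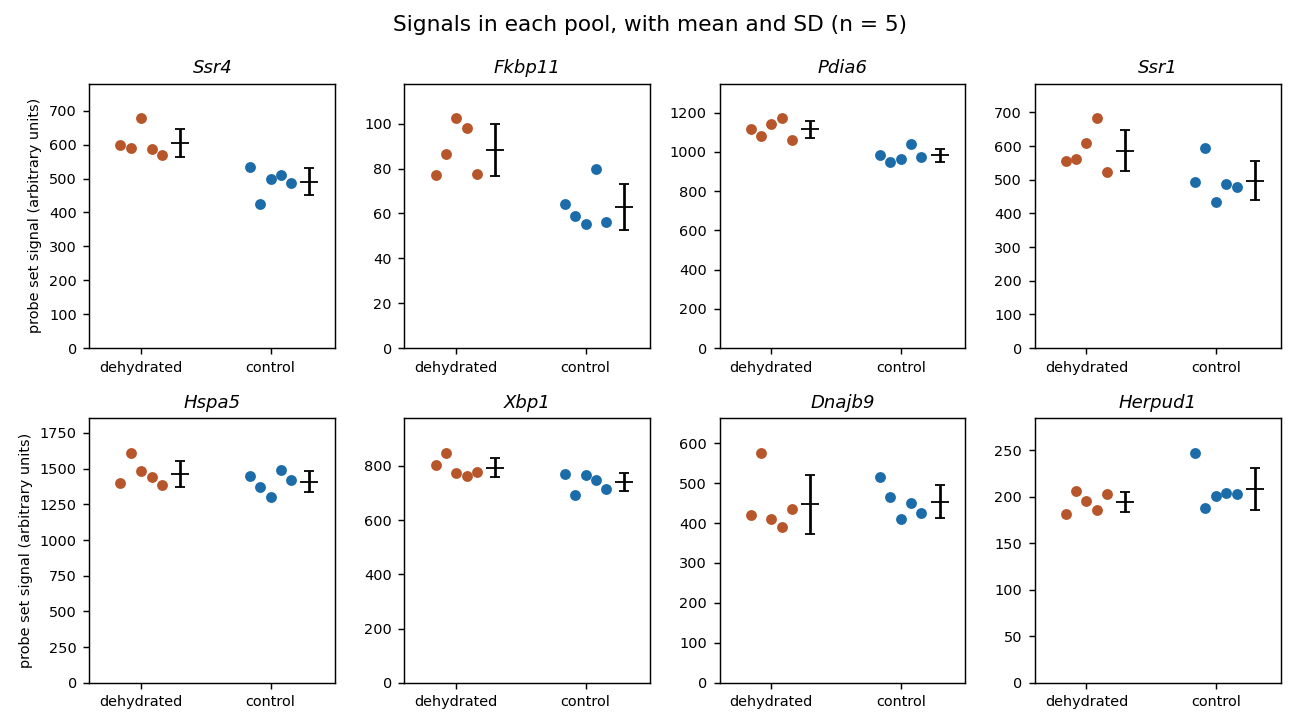
Probe set signal (vertical axis, arbitrary units, from 0, with a scale of its own in each panel) of 8 genes in each of the 5 dehydrated (left) and 5 control pools (right), with mean and SD. The groups of Ssr4 and Pdia6 do not overlap, and those of Fkbp11, Ssr1, Hspa5, Xbp1, Dnajb9 and Herpud1 do.

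Of the sensors and their factors 7 of 8 were measured, 3 of the 7 were positive and 0 passed, with a median of -0.07. Xbp1, whose mRNA is spliced by IRE1 to give the active factor, had 803.2, 847.5, 774.3, 761.5 and 776.1 in dehydrated pools, against 770.9, 693.6, 765.2, 749.1 and 715.4 in control pools. All dehydrated pools except replicate 4 were above the highest control (log2 0.10 ± 0.06, adjusted p = 0.459). The annotation does not say whether the probe set tells spliced from unspliced mRNA, so the value is read here as the level of the gene and not of its active form. Eif2ak3, the gene of PERK, had 69.3, 81.5, 101, 94.8 and 84.5 in dehydrated pools, against 92.2, 72.4, 75.2, 86.9 and 69.9 in control pools (log2 0.11 ± 0.12, adjusted p = 0.728). Its groups overlapped, and the dehydrated range of 69.3 to 101 held the whole control range of 69.9 to 92.2.

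Atf6, the sensor that is cut in the Golgi to release a transcription factor, had 130.3, 136.1, 116, 156.8 and 142.6 in dehydrated pools, against 155.5, 166.8, 143.2, 121.2 and 192.8 in control pools. Control replicate 5 was the highest pool, and the difference was -0.18 ± 0.11 with it (adjusted p = 0.531) and -0.10 without it. Its relative Atf6b differed by -0.32 ± 0.19 (adjusted p = 0.505), the lowest value of the 46, at a dim signal of 34.1 ± 6.08 in dehydrated and 44.5 ± 13.1 in control pools (SD, n = 5 each). The proteases that cut ATF6, Mbtps1 and Mbtps2, differed by -0.07 and 0.01. Wfs1, an ER membrane protein that restrains ATF6, was the dimmest, at 24.1 ± 8.47 in dehydrated and 27.1 ± 11.4 in control pools (SD, n = 5 each), close to the filter at a mean of 24.1, and its interval from -0.68 to 0.43 reached 1.5-fold in the downward direction.

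The 8 genes of ER-associated degradation were divided, with 4 positive, 4 negative, 0 passed and a median of -0.01. Herpud1, which gathers the degradation complex and is a sensitive target of ATF6 and XBP1, had 181.9, 205.9, 195, 186 and 203.4 in dehydrated pools, against 247.1, 187.5, 201.2, 204 and 203.3 in control pools. Control replicate 1 was the highest of the 10 (log2 -0.10 ± 0.08, adjusted p = 0.658). Derl1, a channel component, had 382.6, 306.5, 362.4, 355.8 and 360.8 in dehydrated pools, against 329.6, 303.5, 326.1, 284.8 and 351.5 in control pools. All dehydrated pools except replicate 2 lay above the highest control (log2 0.15 ± 0.08, adjusted p = 0.431), and 2 other probe sets of Derl1 differed by 0.05 and -0.11. The ubiquitin ligase Syvn1 and its partner Sel1l differed by 0.02 and -0.15, the mannosidase-like lectins Edem1 and Edem2 by 0.04 and -0.12, the lectin Os9 by 0.11 and Derl2 by -0.03, with adjusted p from 0.693 to 0.940.

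The translocation genes were the group with the highest median, 0.14, with 6 of 7 positive, 3 at an unadjusted p under 0.05 and 0 passed. Over all probe sets tested 48.8% were positive and 12.7% had an unadjusted p under 0.05. Ssr4, a subunit of the translocon-associated protein complex (TRAP) that helps nascent chains into the Sec61 channel, had 600.4, 590.1, 678.2, 587.3 and 568.4 in dehydrated pools, against 532.9, 425.7, 497.8, 511.1 and 487 in control pools. Its lowest dehydrated pool was above its highest control. The means were 605 ± 42.6 in dehydrated and 491 ± 40.3 in control pools (SD, n = 5 each), a fold of 1.23 with a 95% interval from 1.11 to 1.36. The log2 difference of 0.30 ± 0.07 had the smallest adjusted p of the 46, 0.065, and over the alternative settings it ran from 0.0455 with array weights, the one setting that took it past the threshold, to 0.173.

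The other 3 TRAP subunits were also positive. Ssr1 had 556.4, 563.1, 609.3, 683.1 and 522.4 in dehydrated pools, against 494.5, 593.3, 433.4, 486.7 and 479.1 in control pools (log2 0.24 ± 0.09, adjusted p = 0.251). Control replicate 2 lay among the dehydrated pools and the other controls below them, and a second probe set of Ssr1 differed by 0.25 ± 0.11 (adjusted p = 0.380). Ssr2 had 380.8, 350.7, 376.6, 386.3 and 344.9 in dehydrated pools, against 312.2, 306.9, 321.5, 322.2 and 380.7 in control pools (log2 0.16 ± 0.07, adjusted p = 0.353). Control replicate 5 was its only control inside the dehydrated range, and without it the difference was 0.22 ± 0.06 (adjusted p = 0.114). Ssr3 differed by 0.06 ± 0.06 (adjusted p = 0.736), by 0.00 without control replicate 5, and by 0.00 and -0.04 in its 2 other probe sets.

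Among the channel subunits, Sec61g had 967, 1056, 1088.5, 1020.1 and 1047.2 in dehydrated pools, against 1012.3, 957.2, 1010.5, 986.5 and 798 in control pools (log2 0.12 ± 0.07, adjusted p = 0.452). Control replicate 5 was far the lowest, and without it the difference was 0.06 ± 0.05 (adjusted p = 0.612). Sec61b and the pore subunit Sec61a1 differed by 0.14 and -0.03 (adjusted p = 0.653 and 0.947).

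Within each pool, the gene groups were summarised by their median deviation from each gene's mean over the 10 arrays. For the 46 genes this was 0.05, 0.02, 0.08, 0.05 and 0.00 in dehydrated pools, against 0.00, -0.07, -0.06, -0.01 and 0.01 in control pools, on the log2 scale. Control replicate 5 lay above dehydrated replicate 5, and the other 4 controls lay at 0.00 or below. For the translocation genes it was 0.05, 0.07, 0.13, 0.11 and -0.02 in dehydrated pools, against -0.03, -0.09, -0.11, -0.03 and -0.17 in control pools, with no overlap. The gap was narrow, with the lowest dehydrated pool at -0.0202 and the highest control at -0.0287. These medians come from the same 7 genes as above and are not further evidence. How often medians of so few genes separate in these arrays was not tested. The chaperones, the disulphide and proline genes, the sensors and the degradation genes all overlapped. The median over all probe sets tested stayed between 0.00 and 0.01 in dehydrated and between 0.00 and 0.02 in control pools.

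**Figure D3:**
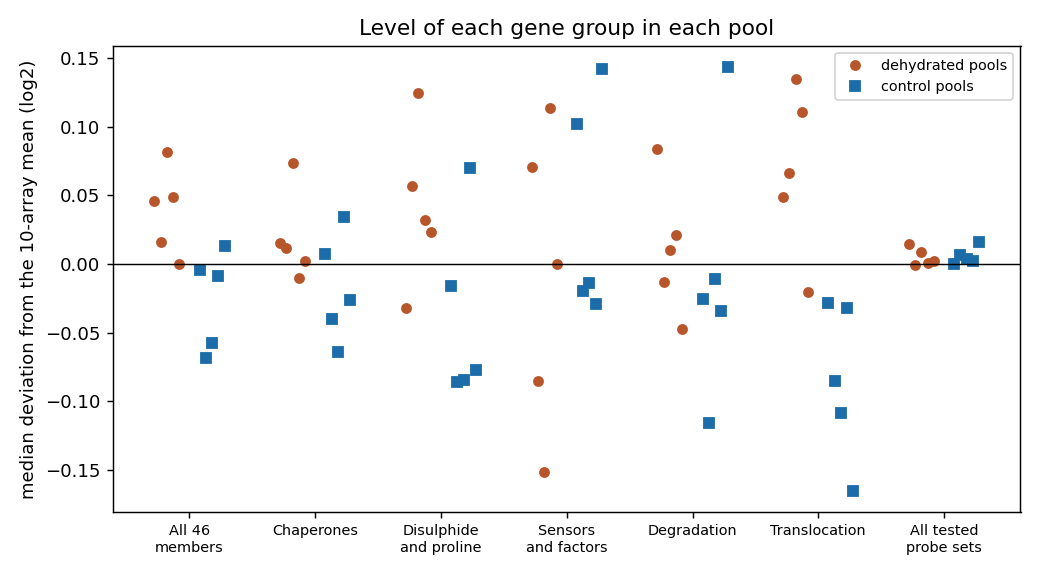
Median deviation of each gene group from its 10-array means (vertical axis, log2) in each dehydrated pool (circles) and control pool (squares), for the 46 genes, each role and all tested probe sets. The dehydrated pools lie from -0.02 to 0.13 and the control pools from -0.17 to -0.03 for translocation genes, while the other roles overlap.

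Markers of cell types also differed between the same pools. The summed signal of 9 magnocellular genes was 15157 to 19085 in dehydrated and 13167 to 15459 in control pools, 7 of the 8 tested were positive and 2 of them (Vgf and Pdyn) rose. That of 10 oligodendrocyte genes was 7273 to 7595 in dehydrated and 7848 to 9506 in control pools, and 10 of the 10 tested were negative, of which 1 (Ermn) fell. The sums of 9 astrocyte genes overlapped, at 13779 to 15462 in dehydrated and 13851 to 15498 in control pools. Single astrocyte genes differed in both directions, with 4 positive, 5 negative and 0 passed. Gfap differed by -0.38 ± 0.09 (limma adjusted p = 0.0553) and Aqp4 by -0.16 ± 0.06 (0.249), while Gjb6 differed by 0.22 ± 0.09 (0.304) and Aldoc by 0.13 ± 0.06 (0.389). The sums of 9 endothelial genes also overlapped, at 1459 to 1580 in dehydrated and 1195 to 1597 in control pools. Of these 9, 8 were positive and 1 negative, with a median log2 difference of 0.17, and 0 passed. Slco1a4 alone had groups apart, at 370.4 to 387.8 in dehydrated and 272.7 to 355.4 in control pools (limma adjusted p = 0.0919). The 11 microglial genes, 4 of them too dim to test, summed to 938 to 1023 in dehydrated and 1026 to 1135 in control pools. These sums did not overlap, but the gap was narrow (1023 against 1025.7). Of the 7 tested, 6 were negative, 1 (C1qc) was positive and 0 passed, and Aif1 differed by -0.42 ± 0.11 (limma adjusted p = 0.0880). Red cell genes summed to 314 to 595 in dehydrated and 584 to 786 in control pools, and of these Hbb fell in dehydrated pools. Genes of the lateral hypothalamus summed to 3304 to 5960 in dehydrated and 4081 to 6946 in control pools. Much of that sum came from Pmch, at means of 3958 in dehydrated and 3867 in control pools. Of the 5 tested, 4 were negative, 1 (Pmch) was positive and 0 passed. Hcrt differed by -1.28 ± 0.44 (limma adjusted p = 0.233), the lowest log2 difference of all probe sets tested. Hdc differed by -0.67 ± 0.19 with groups apart (adjusted p = 0.135), and Nkx2-1 by -0.50 ± 0.16 (adjusted p = 0.205). General neuronal genes summed to 8474 to 9882 in dehydrated and 9081 to 9661 in control pools. No marker of these lists was at 0, which does not by itself show that each was expressed. The part of these shifts in the small positive differences of the translocation and disulphide genes was not tested.

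Of the 46 genes, 15 had more than 1 probe set, which gave 22 further probe sets, 16 of them bright enough to test. Of the 16, 7 had the sign of the probe set described above and 9 the opposite sign, and 1 (Ssr1) had an unadjusted p under 0.05. The widest gap was that of Sec61a1, at -0.03 for the chosen probe set and 0.27 ± 0.20 for another (adjusted p = 0.597). It was followed by Derl1, at 0.15 and -0.11 ± 0.16 (adjusted p = 0.813), and Ero1a, at 0.03 and -0.21 ± 0.11 (adjusted p = 0.439).

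The neighbouring genes of the pathway were read from 7 further lists, in which 113 of 125 genes on the array were tested and 2 passed, both of them transcription factors. Creb3l1, an ER-anchored factor of the ATF6 type, rose, with 62.4, 62, 60.8, 48.4 and 69.4 in dehydrated pools, against 31.9, 41.8, 33.9, 35.5 and 24.3 in control pools (log2 0.80 ± 0.14, adjusted p = 0.0159). Every dehydrated pool was above every control. Atf4, the factor whose translation PERK favours, rose as well, with 787.3, 787.7, 791.5, 835.7 and 774.8 in dehydrated pools, against 596.9, 588.8, 630.9, 601.2 and 715.4 in control pools (log2 0.35 ± 0.06, adjusted p = 0.0146). Its dehydrated pools were close together, and control replicate 5 was the nearest control. Creb3l1 was dim, at a mean signal of 47.0. It was tested in 21 of the 22 alternative settings, over which its log2 difference ran from 0.354 to 0.876. It did not pass without dehydrated replicate 3 (adjusted p = 0.0535). Atf4 did not pass without dehydrated replicate 4 (0.0538), control replicate 1 (0.0508) or control replicate 2 (0.0518), nor without the variance trend (0.0951).

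Of the 12 tested genes around PERK and Atf4, 1 rose, 0 fell and 11 did not pass, with 9 positive. Ddit3, the death-linked factor CHOP, had 204, 186.8, 169.9, 163.2 and 182.3 in dehydrated pools, against 152.9, 166.9, 179.7, 174.2 and 194.5 in control pools, and the groups overlapped (log2 0.06 ± 0.08, adjusted p = 0.807). Asns, an asparagine synthetase driven by ATF4, had 257.4 to 283.1 in dehydrated and 176.8 to 248.2 in control pools, without overlap, and did not pass (log2 0.32 ± 0.08, adjusted p = 0.108). Of the 3 tested Creb3 family genes 1 rose, 0 fell and 2 did not pass, and Creb3 itself differed by 0.18 ± 0.08 (adjusted p = 0.379).

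The remaining 5 lists held no gene that passed (0 of 17 targeting and signal peptidase genes, 0 of 16 glycosylation genes, 0 of 22 other folding genes, 0 of 20 other degradation genes and 0 of 23 genes of transport to the Golgi). Their median log2 differences were 0.04, 0.07, 0.08, 0.09 and 0.08 in that order, with 12, 12, 14, 14 and 16 genes positive. Over all 7 lists, 27 of the 113 tested genes had an unadjusted p under 0.05 and a positive difference, where 6.7% of all probe sets did. A further 2 of the 113 had one and a negative difference, where 6.01% of all probe sets did. The sets are unlike, since the 113 were read from the brightest probe set of each gene and all probe sets include dimmer ones. The smallest adjusted p in these 5 lists were those of Tmed10, a cargo receptor of vesicles between ER and Golgi (log2 0.27 ± 0.06, adjusted p = 0.0623), Alg2, a mannosyltransferase that builds the glycan precursor (0.22 ± 0.05, adjusted p = 0.0665), and Tmx4, a membrane-bound thioredoxin (0.20 ± 0.05, adjusted p = 0.0808). Over the alternative settings the adjusted p ran from 0.0372 to 0.158 for Tmed10, from 0.0303 to 0.843 for Alg2 and from 0.0456 to 0.614 for Tmx4. For each of these 3 all 5 dehydrated pools lay above all 5 control pools, with Tmed10 at 417.7 to 478.3 in dehydrated and 358.7 to 381.4 in control pools.

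The other genes named from these lists did not pass either. Ostc, a subunit of the oligosaccharyltransferase, differed by 0.25 ± 0.07 (adjusted p = 0.166), Mcfd2, a cargo receptor cofactor, by 0.19 ± 0.06 (0.205), and the thioredoxin Tmx1 by 0.18 ± 0.05 (0.147). Erlec1, a lectin of ER degradation, differed by 0.17 ± 0.05 (adjusted p = 0.162). Over the alternative settings the difference of Erlec1 ran from 0.0737 to 0.1903, with adjusted p from 0.115 to 0.632. The ATPase gene Vcp, which pulls proteins out of the ER membrane, differed by 0.20 ± 0.08 (adjusted p = 0.292), and the signal peptidase subunits Spcs1 and Spcs3 by 0.16 and 0.13 (0.258 and 0.416). In the same pools, the magnocellular peptide gene Pdyn had 679.7 to 819.7 in dehydrated and 320.2 to 497.0 in control pools (log2 0.81 ± 0.10, adjusted p = 5.7e-04), and Avp 3930.5 to 5698.1 in dehydrated and 2853.0 to 4333.5 in control pools (log2 0.50 ± 0.11, adjusted p = 0.0504). Pdyn did not pass with the mean of all its probe sets (log2 0.39, adjusted p = 0.19), and the adjusted p of Avp ran from 0.00153 to 0.169 over the alternative settings.

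**Figure D4:**
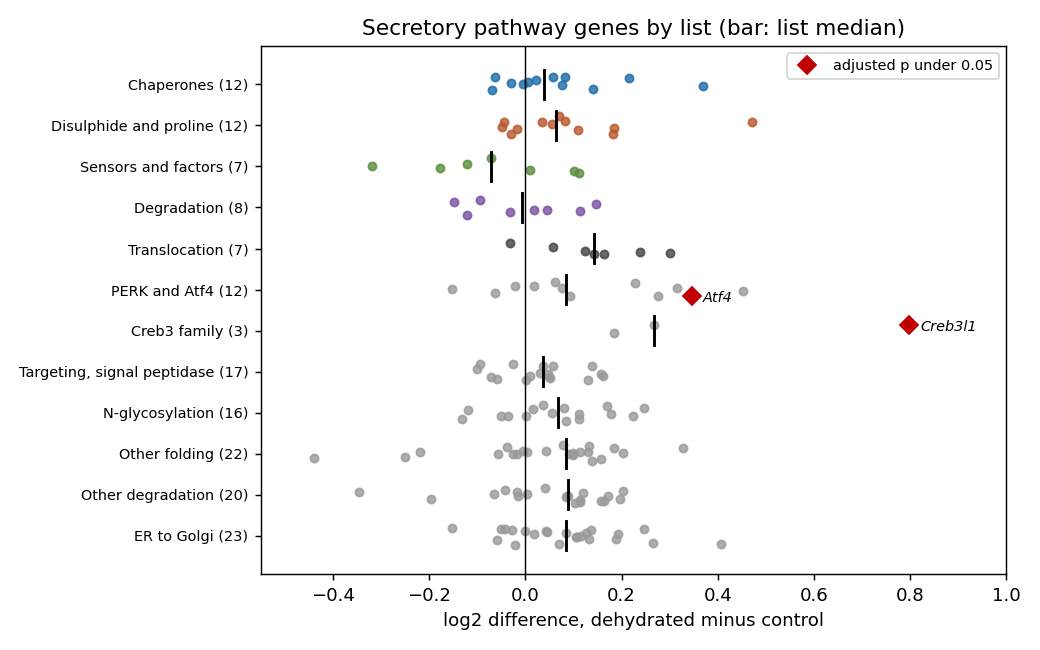
Log2 difference between dehydrated and control pools (horizontal axis) for each tested gene of the 5 role groups and the 7 neighbouring lists (rows, number of genes in brackets; vertical jitter has no meaning). Bars mark the median of each list, and red diamonds the 2 genes with an adjusted p under 0.05, Atf4 and Creb3l1.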

How the data were processed

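The deposited values were probe set intensities on a linear scale from 10 single-sample arrays, which the authors produced in GCOS 1.2 (named in the submitters' processing notes). How background was handled, and any detection calls, are not given in the sources used here. Trimming 2% at each end left a mean of 100 on each array, so a shift shared by most transcripts would be hidden. The number of arrays limits the precision.

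The table had 31042 non-control probe sets. The platform annotation gave 1 symbol for 20826 of them and more than 1 for 436, and did not list 9780. Symbols were updated through Entrez identifiers, of which 20758 matched. Each signal was increased by a pseudocount of 3.72 (0.1 of the median array median) before taking log2, which understates differences of dim genes. Probe sets whose mean signal reached the 40th percentile (18629) were fitted with lmFit and trended eBayes in limma (version 3.58.1, R version 4.3.3), and p-values were two-sided and adjusted over all of them by the method of Benjamini and Hochberg. The fit was tested on simulated data with known differences. Of true log2 differences of 0.2, 1.2% passed the threshold, of 0.4 34.8%, of 0.8 81.2% and of 1.6 99.6%. In those simulations a difference as small as most of those described here seldom passed. Intervals and errors come from this fit. Groups followed the source labels, and replicate numbers followed accession order and pair nothing.

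The genes, lists and tests were chosen with earlier results of these data known, and the paraventricular genes Crh, Trh and Sim1 were added after their values could be seen. Values per pool were given for the 10 genes with the smallest p and for 12 genes fixed by name, of which Ern1 was not analysed here. From the other lists came the genes that passed, the 2 with the smallest p in each list, and Atf4, Ddit3, Creb3l1, Avp and Pdyn. Alternatives changed the scaling, pseudocount, filter, variance model, array weights, choice of probe set and the arrays included. Promoter windows and their coordinates are those of RefSeq on GRCr8. The sequence of 1 promoter match is not reported here.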

Additional observations from a re-analysis of the deposited data

Results flagged for a closer look

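In groups of 5 pools, a pool was looked at again when its gap to the nearest other pool took more than 0.71 of the group's range (Dixon's 95% value). This met 7 of 92 groups (46 genes in 2 conditions), or 7.61%, where chance gives about 1 in 20, and 4 of the 7 were control replicate 5. In that pool Mbtps1 was highest at 219 (other controls 149.9 to 166.7), Ssr2 highest at 380.7 (306.9 to 322.2), Sec61g lowest at 798 (957.2 to 1012.3) and Ssr3 lowest at 927.2 (1110.2 to 1146.9). Without it the log2 difference of Mbtps1 was 0.02, of Ssr2 0.22, of Sec61g 0.06 and of Ssr3 0.00, and none of the 4 passed (adjusted p from 0.114 to 0.994). Dnajb9 was highest in dehydrated replicate 2 at 575.5 (other dehydrated pools 391.2 to 435.3). Ero1a was lowest in dehydrated replicate 1 at 461.9 (504.9 to 514.4), and Dnajb11 lowest in control replicate 4 at 130.2 (146.9 to 152.3).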

How the results depend on the processing

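The count of 0 of the 46 genes past the threshold was 1 with array weights (Ssr4) and 0 under each other alternative run, including each left-out array (0 to 0). The number of positive genes was 29 to 31 over the other settings and 27 to 32 over left-out arrays, and the median log2 difference 0.03 to 0.06 and 0.02 to 0.06. Among the neighbouring genes the count of 2 was 1 without the variance trend, 4 with array weights and 5 without dehydrated replicate 2 and control replicate 5 together, and 1 to 2 over left-out arrays. Among the genes given with values per pool, the small differences of 4 changed sign under an alternative. That of Hyou1 was 0.0177 with array weights, 0.0871 with the mean of all its probe sets and -0.2021 to 0.085 over left-out arrays. Those of Hsp90b1, Dnajb9 and Calr ran over left-out arrays from -0.0105 to 0.0541, from -0.1479 (without dehydrated replicate 2 and control replicate 5) to 0.016 and from -0.0269 to 0.0645. Over all 46 genes the sign differed for 7 without control replicate 5 (Dnajb11, Ero1a, Hsp90b1, Hyou1, Mbtps1, Mbtps2 and Sec61a1) and for 2 without dehydrated replicate 2 (Dnajb11 and Sec61a1). The cause was not tested. On the gene's own strand alone the ERSE was in 13.2% of the genes and the ERSE-II in 5.26%. The share of proteins with an ER retention signal was not run, since no protein sequences were used here. No paired analysis was possible because the replicate numbers follow accession order and pair no samples. With 5 pools a group, 3 genes (Hyou1, Sil1 and Wfs1) had a standard error of 0.2 or more and could not be read closely.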

Other observations

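The following genes of the neighbouring lists did not pass and were picked after their values were seen. Serpinh1, the collagen chaperone of the ER, averaged 70.1 ± 11.0 in dehydrated and 97.9 ± 25.5 in control pools (SD, n = 5 each), and its log2 difference was -0.44 ± 0.15 (limma adjusted p = 0.233). Ube2g2, a ubiquitin-conjugating enzyme of ER degradation, differed by -0.35 ± 0.16 (adjusted p = 0.379), and these 2 were the negative genes at an unadjusted p under 0.05. Lman1, the lectin that carries glycoproteins out of the ER together with Mcfd2, averaged 43.7 ± 6.89 in dehydrated and 32.1 ± 5.38 in control pools (SD, n = 5 each), and its log2 difference was 0.41 ± 0.15 (limma adjusted p = 0.261). Fkbp14 and Cebpb differed by 0.33 ± 0.14 and 0.45 ± 0.17 (adjusted p = 0.348 and 0.288), and Chac1, a glutathione-degrading enzyme induced through ATF4, by 0.28 ± 0.08 (adjusted p = 0.132).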
